A study of Homo sapiens with 4 samples.

Results

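The RNAs described here are 8 long noncoding RNA (lncRNA) genes with established names, MALAT1, NEAT1, TUG1, KCNQ1OT1, NORAD, PVT1, CRNDE and LINC-PINT. They were taken by gene name from a transcript table of RNA immunoprecipitation sequencing (RIP-seq), with every listed transcript kept. All 8 genes had at least 1 row, and together they held 84 of the 75165 transcripts and were 8 of the 20298 genes, 3638 of which were lncRNA genes. The cells were MDA-MB-231, an established triple negative breast cancer line, and in every library they carried lentiviral 3x flag-YTHDC1, a tagged nuclear reader of N6-methyladenosine (m6A), so no library came from unmodified cells. There were 2 IP libraries, in which RNA was recovered with an anti-flag antibody, and 2 input libraries from the same kind of nuclear lysate, per the extraction protocol. The series describes the input as total RNA. The cells were selected with 2 μg/ml puromycin and crosslinked with UV light before the nuclei were taken. A selection of 4 days is recorded for every library. The paper states that duration for knockout and luciferase-expressing cells, and gives none for the flag-YTHDC1 cells.

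lncRNAs are transcribed and processed much like mRNAs, but act as RNA. Many stay in the nucleus, where they hold nuclear bodies together or affect the chromatin near the site of their own transcription. m6A has been mapped on several of them, MALAT1 among the best studied, and YTHDC1 is a nuclear m6A reader.

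The question a RIP-seq design asks is which RNAs are recovered with the tagged protein beyond their share in the input. That comparison is not made here. The only value used for a transcript is the authors' mean normalized count, which is 1 number over all 4 libraries, IP and input together. Every value below is therefore the authors' mean with no spread between replicates, describes a mixture of IP and input RNA, and cannot tell binding from abundance. How deeply each library was sequenced cannot be read from such a mean. No test was run. The values grow with the length of a transcript, so a higher count of one gene than of another is a statement about reads and not about molecules.

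By reads, MALAT1 stood far above the others. The summed mean normalized count was 45810 for MALAT1, 10481 for NORAD, 4322 for NEAT1, 3899 for TUG1, 1512 for KCNQ1OT1, 1128 for PVT1, 735 for LINC-PINT and 87.8 for CRNDE. MALAT1 and NORAD together held 82.8% of the reads of the 8 genes, and MALAT1 alone held 67.4%. Of all 3638 lncRNA genes, MALAT1 ranked 1, NORAD 5, NEAT1 9 and TUG1 10 by this sum, whereas CRNDE ranked 661. The median lncRNA gene had a sum of 19.1, with quartiles of 8.75 and 57.7, so all 8 genes lay above the upper quartile. However, 76.7% of the lncRNA genes had 1 listed transcript, whereas the CRNDE sum adds 6, the highest of them at 29.4. Among genes of all types the median sum was 227, and CRNDE lay below it, at percentile 38.8. The 8 genes held 14.7% of the mean normalized counts of all lncRNA genes, and MALAT1 alone held 9.88% of the counts of all lncRNA genes.

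**Figure D1:**
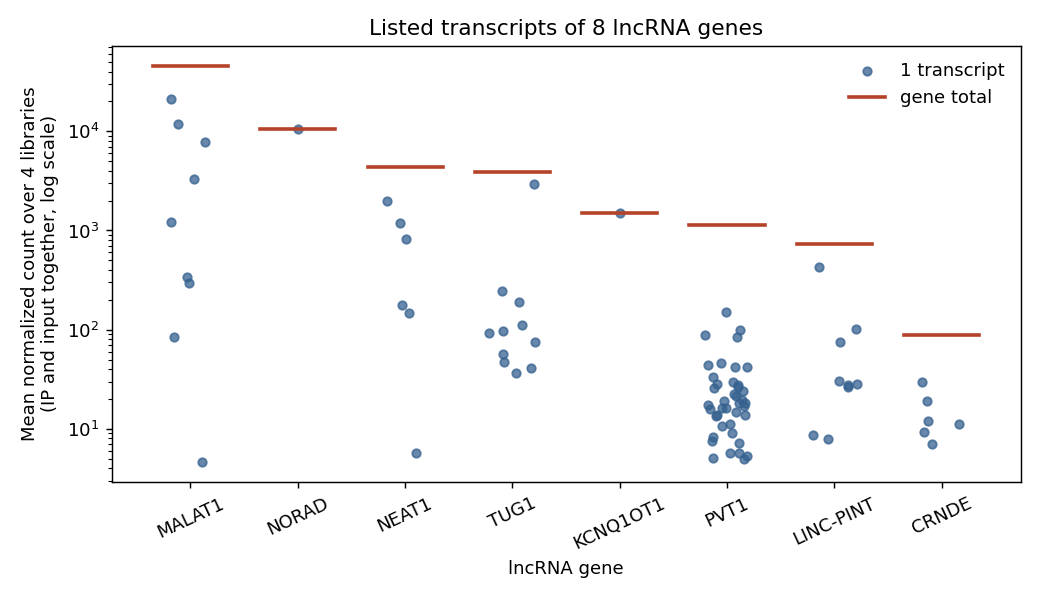
Mean normalized count of every listed transcript (points) and its sum over each gene (bars), for 8 lncRNA genes on a log axis, with IP and input libraries pooled. MALAT1 transcripts ran from 4.63 to 20959, whereas the highest of the 6 CRNDE transcripts was at 29.4.

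The lncRNA label was checked against the annotation. The deposited table classes all 8 genes as lncRNA, and 81 of their 84 transcripts carry the lncRNA type. The exceptions were 2 PVT1 transcripts typed as misc_RNA and 1 LINC-PINT transcript typed as a retained intron. RefSeq (GRCh38.p14) differs for 1 gene, TUG1, which it classes as protein_coding. All 8 identifiers were found under the same symbol in a separate table of gene names. The table itself describes CRNDE only as an uncharacterized locus. Whether the RNAs were nuclear was not measured, since no cytoplasmic library is part of the comparison, and NORAD is known mainly from the cytoplasm.

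MALAT1 and NEAT1 are neighbours on chromosome 11 and are the RNAs of nuclear bodies. MALAT1 (ENSG00000251562.8) lies at chr11:65497738-65506516 in RefSeq and collects in nuclear speckles, where splicing factors are stored. Its 9 listed transcripts were spread unevenly. MALAT1-215 (ENST00000619449.2) had a mean normalized count of 20959, which was 45.8% of the gene's sum. MALAT1-202 (ENST00000534336.1) had 11836 (25.8%) and MALAT1-210 (ENST00000617489.1) had 7741 (16.9%). Thus 3 transcripts held 88.5% of the MALAT1 reads. The next 2, MALAT1-209 and MALAT1-204, had 3325 and 1226, and the other 4 ranged from 4.63 for MALAT1-214 to 338 for MALAT1-213. MALAT1-215 was the third of all 5795 transcripts of lncRNA type by this value, and 5 MALAT1 transcripts were among the first 29.

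NEAT1 (ENSG00000245532.9), at chr11:65422798-65445540, is the RNA scaffold of paraspeckles. It is made in a short and a long form that share their 5′ part, and the table does not say which listed transcript is which. NEAT1-202 (ENST00000501122.2) had a mean normalized count of 1970, NEAT1-203 (ENST00000601801.3) had 1198 and NEAT1-207 (ENST00000645023.1) had 827. These made up 45.6%, 27.7% and 19.1% of the gene. The remaining 3 had 175, 145 and 5.65. The make-up of NEAT1 thus resembled that of MALAT1, with a leading share of 45.6% against 45.8%, although the sums differed widely. MIR612, a microRNA gene inside the NEAT1 span, was listed with 15.7. Whether those reads came from the NEAT1 RNA was not tested.

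**Figure D2:**
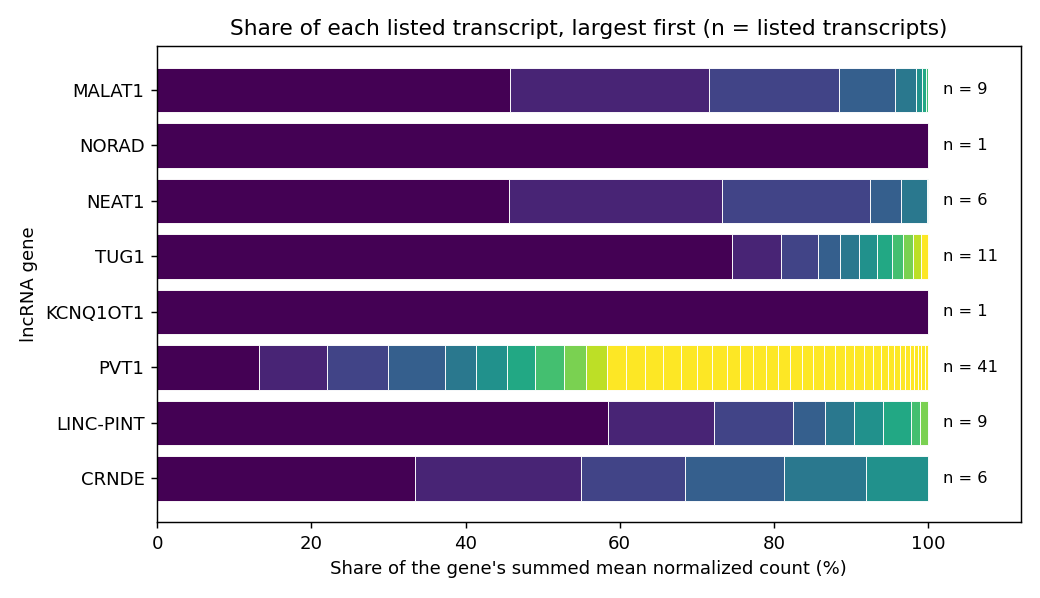
Share of each listed transcript in the summed mean normalized count of its gene, in percent, stacked from the largest (colour follows that order), with the number of listed transcripts at the right. TUG1 was led by 1 transcript with 74.6%, whereas no PVT1 transcript held more than 13.2%.

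NORAD and KCNQ1OT1 had 1 listed transcript each, so no reads were divided among listed isoforms of the gene. NORAD (ENSG00000260032.2; chr20:36045618-36050960) is induced by DNA damage and helps to keep the genome stable. NORAD-201 (ENST00000565493.2) had a mean normalized count of 10481 and ranked 6 among transcripts of lncRNA type. KCNQ1OT1 (ENSG00000269821.1; chr11:2608328-2699994) is an imprinted antisense RNA that silences genes around it on the paternal chromosome. KCNQ1OT1-201 (ENST00000597346.1) had 1512 and ranked 26. KCNQ1, the gene it runs against, was not listed, so the table gives no sense counterpart for it. CDKN1C, an imprinted cell cycle inhibitor gene of the same cluster, was listed with a sum of 154 over 4 transcripts.

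Length changes the picture for the genes whose RNA is largely unspliced, where the gene's span can stand in for the length of the RNA. Per kb of RefSeq span, MALAT1 had 5218 normalized counts, NORAD 1962, NEAT1 190 and KCNQ1OT1 16.5. The order was the same as by sum, but the distances were not. On this per-length scale MALAT1 was 2.66 times NORAD, NORAD was 10.3 times NEAT1 and NEAT1 was 11.5 times KCNQ1OT1. KCNQ1OT1 spans 91667 bases against 5343 for NORAD, and per kb it was 119 times lower. The span is an approximation, because the short form of NEAT1 covers only part of it and the GENCODE models behind the counts can be shorter than the RefSeq gene. The other 4 genes are spliced and are not compared per length.

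**Figure D3:**
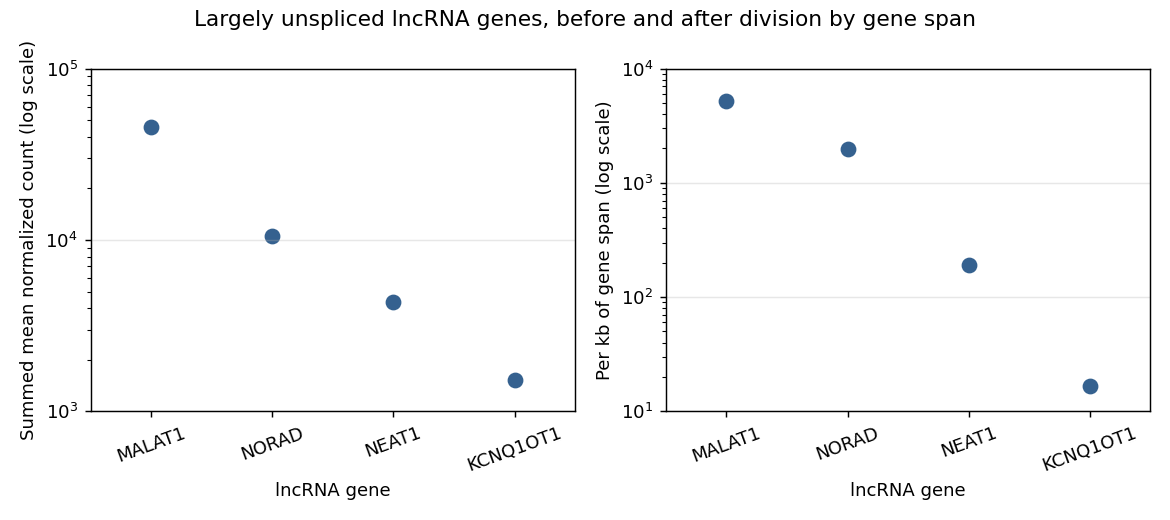
Summed mean normalized count (left) and the same sum per kb of RefSeq gene span (right) for 4 largely unspliced lncRNA genes, both on log axes. KCNQ1OT1 was lowest in both, at 1512 and at 16.5 per kb.

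TUG1, PVT1, LINC-PINT and CRNDE are spliced, and they differed in how their reads were spread over transcripts. TUG1 (ENSG00000253352.9; chr22:30969265-30979395) was found as a gene raised by taurine in the retina. Its leading transcript, TUG1-217 (ENST00000644773.1), had a mean normalized count of 2908, or 74.6% of the gene. The other 10 ranged from 36.6 to 245. None of the 11 TUG1 transcripts was below 10.

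LINC-PINT (ENSG00000231721.7; chr7:130877562-131109925) is a p53-induced RNA. LINC-PINT-202 (ENST00000423414.5) led with 430, or 58.5% of the gene. LINC-PINT-222 (ENST00000647388.1) followed with 101 (13.7%) and LINC-PINT-208 (ENST00000451786.5) with 75.4 (10.3%). The other 6 ranged from 7.93 to 30.6, and the retained-intron transcript LINC-PINT-203 was among them with 26.3. LINC00513, a lncRNA gene within the same span, was listed with 4.83, and whether those reads came from LINC-PINT RNA was not tested.

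PVT1 (ENSG00000249859.11), a neighbour of MYC on chromosome 8 that is often co-amplified with it in cancer, was the most divided. It had 41 listed transcripts, the highest number of any lncRNA gene in the table and one shared with 1 other, MIR4435-2HG, which was singled out after its value was seen. PVT1-372 (ENST00000670204.1) led with a mean normalized count of 149, or 13.2% of the gene. The misc_RNA transcript PVT1-223 came next with 99.3, followed by PVT1-232 with 88.8 and PVT1-219 with 84.0. The median PVT1 transcript had 18.2, and 9 of the 41 were below 10. The PVT1 sum of 1128 was thus close to that of KCNQ1OT1 in reads, but its leading transcript had 149 against 1512 for KCNQ1OT1-201.

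CRNDE (ENSG00000245694.10; chr16:54918863-54928886) is a lncRNA first described as raised in colorectal tumors. It was the only one of the 8 with no transcript at 100 or above. CRNDE-206 (ENST00000559432.5) had a mean normalized count of 29.4, CRNDE-209 (ENST00000560208.1) had 18.9 and CRNDE-207 (ENST00000559598.7) had 11.9. CRNDE-224 (ENST00000668556.1) had 11.2, CRNDE-218 (ENST00000658082.1) had 9.37 and CRNDE-210 had 7.04. The division of CRNDE among its transcripts thus rests on few reads.

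The division of reads was summarised as the effective number of transcripts, which is the inverse of the summed squared shares. It equals the number of listed transcripts when all are alike and cannot exceed it. That number was 41 for PVT1 and 6 for CRNDE, so the effective number does not measure evenness alone. The effective number was 19.5 for PVT1, 4.74 for CRNDE, 3.22 for MALAT1, 3.09 for NEAT1, 2.65 for LINC-PINT and 1.77 for TUG1. For the 177 lncRNA genes with at least 5 listed transcripts, the median was 3.95 and the highest value was that of PVT1. Their median leading share was 38.0%, with quartiles of 30.7% and 52.2%. The leading shares of TUG1 and LINC-PINT lay above these quartiles, those of MALAT1, NEAT1 and CRNDE between them, and that of PVT1 was the lowest of the 177. The 177 genes were not matched for their number of listed transcripts. A gene with more of them can reach a lower leading share and a higher effective number, and no lncRNA gene had more than the 41 of PVT1. Only 8 of the 177 had a leading share above that of TUG1. RSEM, the program the authors used to count, divides reads that match several transcripts by estimation, and transcripts of these genes overlap, so shares within a gene are less certain than its sum.

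A list of 18 other names of regulatory lncRNAs, picked by hand, was also looked up. Of these, 13 were listed, with sums from 137 for FIRRE to 2590 for CYTOR and a median of 599. CYTOR alone of the 13 exceeded KCNQ1OT1, and none of the 13 reached TUG1, NEAT1, NORAD or MALAT1. None of them was below CRNDE. Outside this list, 2 genes were picked once their values were known. RMRP had 17269, above NORAD, and MIR4435-2HG had 6472, above NEAT1 and TUG1. The 5 names without a row were MIAT, MEG3, H19, HOTAIR and TERRA. TERRA is a collective name for telomeric repeat RNA and not a gene symbol, so a search by gene name could not find it. Because the authors dropped transcripts that did not reach 5 reads in 50% or more of the samples, a gene that is not listed may still have had reads.

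Genes for proteins that work with these RNAs were also looked up. They were 12 genes of paraspeckles, nuclear speckles and Polycomb repressive complex 2 together with YTHDC1, and all 12 were listed. Their sums cover every listed transcript type and not protein-coding transcripts alone. Among the paraspeckle genes, NONO and SFPQ had sums of 12877 and 11840, above NEAT1 in reads, and RBM14 and PSPC1 had 3219 and 3136, below it. The nuclear speckle genes SRRM2 and SON had 61487 and 32153, on either side of MALAT1, whereas SRSF2 and SRSF1 had 5604 and 2537, far below it. SRSF2 was led by a transcript typed as nonsense-mediated decay, with 82.4% of its sum, and SRSF1 by a retained intron, with 40.7%. EZH2, SUZ12 and EED, the core of Polycomb repressive complex 2, had 2784, 913 and 847. YTHDC1 itself, which the cells overexpressed, had 55488.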

How the data were processed

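RIP-seq was measured in 4 libraries, 2 IP and 2 input, and samples were grouped by their labels. The authors mapped reads with STAR (2.7.2b) to a GENCODE v33 transcriptome (GRCh38, hg38) and estimated reads per transcript with RSEM (1.2.31). Transcripts under 5 reads in over 50% of the samples were dropped, and the authors then applied RUVSeq and DESeq2. The deposited signal value of a transcript is the authors' mean normalized count over all libraries, not divided by length. The strand setting is not given in the sources used here. The table also holds the authors' own comparison (a log2 fold change per transcript, the error of that change, raw and adjusted p-values), which was not used.

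Mean normalized counts were summed by gene identifier, ranked and expressed as shares, with steps tested on simulated data (python 3.11.15, pandas 2.3.3, numpy 2.4.6, matplotlib 3.10.9). The mean used has no value per library, so it gives no depth, interval or test. The authors' own comparison was left out by choice. Coordinates and spans are from RefSeq GRCh38.p14. No sequence is shown, since no value used bears on one. Every member was named, with its leading transcript and those of at least 10% of the gene. Some genes of the lists of partner proteins are not reported here. Members and lists were chosen with earlier results of these data known. Alternatives were minimum values of 10 and 100, lncRNA transcripts alone and other rankings.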

Additional observations from a re-analysis of the deposited data

How the results depend on the processing

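Raising the minimum mean normalized count from none to 10 left 69 of the 84 transcripts, and a minimum of 100 left 21 and none of CRNDE. The median leading share over the members with several transcripts was 45.7% with all transcripts, 45.7% with a minimum of 10 and 81.0% with a minimum of 100. At 100, CRNDE dropped out and PVT1 was counted with 1 transcript and a share of 100%. The 81.0% is thus from a changed set, and dropping low transcripts cannot lower a leading share. Percentiles moved most for CRNDE, from 38.8 among all genes to 82.2 among genes led by a lncRNA transcript. That move reflects the change of reference set, since CRNDE was at 81.8 among lncRNA genes. By its leading transcript alone, the PVT1 percentile among all genes moved from 75.4 to 50.9. No paired analysis was possible because the values used are pooled over all libraries. For the same reason, alternatives that need a value per library (another normalization, another tool, each library left out) were not run. No value here has an error, and low transcripts rest on few reads.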
